A study of Mus musculus with 6 samples.

Results

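The IL-6 family comprises cytokines that, apart from IL-31, signal through the shared receptor chain gp130, encoded by Il6st, together with the receptor chains that bind each cytokine. All 10 members chosen by gene symbol were among the 16533 genes of the deposited count tables, 5 of them ligands (Il6, Il11, Lif, Osm and Clcf1) and 5 receptors (Il6st, Il6ra, Il11ra1, Osmr and Lifr). They were followed in mouse inferior vena cavae taken, with the thrombus they held, 24 h after ligation, a model of deep vein thrombosis. The tested mice were Stingf/f Lyzm-Cre+/-, called mKO, in which both Sting1 alleles are floxed and 1 copy of Cre is driven from the Lyz2 locus, active in neutrophils, monocytes and macrophages. The control mice were Stingf/f, with the same floxed alleles and no Cre. Each group had 3 libraries, each library was a pool of 3 thrombi, and all 6 libraries came from ligated veins, so neither an unligated vein nor a Cre-only mouse enters the comparison. Age and sex are not given in the labels. The p-values measure the spread between pools.

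Members of this family act in pairs or triplets of chains. IL-6 and IL-11 first bind their own receptor, IL-6 receptor alpha (Il6ra) or IL-11 receptor alpha (Il11ra1), and the complex then joins gp130, whereas LIF and oncostatin M bring gp130 together with a second signalling chain, the LIF receptor (Lifr) or the oncostatin M receptor (Osmr). The receptors activate Janus kinases and the transcription factor STAT3, and SOCS3 shuts the signal off. In injured vessels IL-6 and its relatives are known as products of stromal, endothelial and myeloid cells that drive the acute-phase response and leukocyte recruitment.

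Library totals lay between 166083163 and 172223654 counts in mKO and between 158579864 and 180068483 in control, and the members had 952 to 28631 counts per library, so counting error was small beside the spread between pools. Sting1 itself had 22.7, 21.4 and 28.7 CPM in mKO libraries 1 to 3, against 25.1, 31.4 and 27.1 CPM in control libraries 1 to 3 (log2 fold change -0.20, SE 0.14, adjusted p 0.579 by edgeR quasi-likelihood). CPM values are counts scaled to library size, which was adjusted by the TMM method. The count covers the whole gene in every cell, so it does not test deletion within myeloid cells. Lyz2, the locus that carries Cre in mKO mice alone, averaged 981.7 ± 293.7 CPM in mKO and 1691 ± 235 CPM in control (SD, n = 3 each). mKO library 3 stood apart by its summed skeletal muscle markers (122.7 CPM, against 2.96 to 36.2 CPM elsewhere). In these bulk samples fewer cells of a type and less RNA per cell cannot be told apart.

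The largest differences were among the ligands. Il11, Lif and Il6 were higher in all 3 mKO libraries than in any control library, by 2.21-, 1.82- and 1.38-fold, and Osmr was lower in all 3, at 0.770 of its control level. None of these differences passed an adjusted p of 0.05 over all genes tested by edgeR quasi-likelihood, where 0 of 10 members and 0 of 16523 genes (0.0%) passed. At an unadjusted p under 0.05 there were 4 members, 3 higher in mKO and 1 lower, where 5.6% of all genes tested were higher and 6.26% lower, 11.9% in all. By DESeq2, 2 members passed an adjusted p of 0.05, Il11 and Lif, both higher in mKO, where 1.47% of genes were called higher in mKO and 1.33% lower, 2.8% in all. By limma voom, with or without quality weights, 0 members passed. Groups did not overlap for 3 members with mKO above control and 1 below, where 8.77% of all genes tested had mKO above control and 9.39% below, 18.2% in all. The median log2 fold change was 0.46 over the 5 ligands, -0.09 over the 5 receptors and -0.03 over all genes tested.

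**Figure D1:**
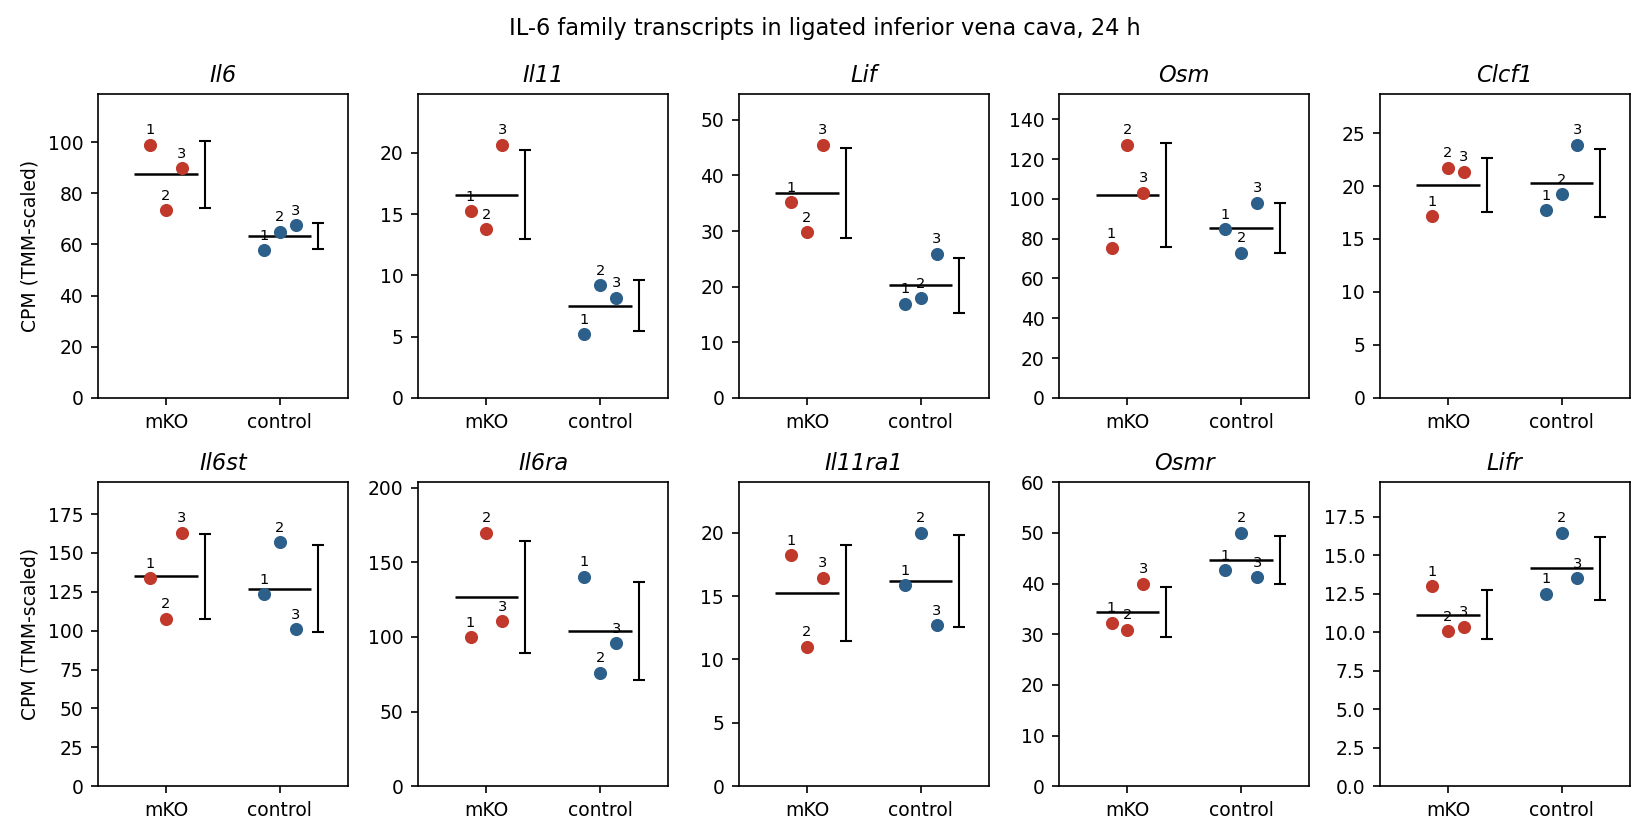
Level of each member in each library, in CPM with TMM-scaled library sizes on axes that start at 0. Points are libraries, numbered by replicate; the line is the group mean and the bar its SD (n = 3). The mKO points of Il6, Il11 and Lif lie above all control points and those of Osmr below them, and the other 6 members overlap.

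Il11 (ENSMUSG00000004371, chromosome 7), a cytokine of stromal cells known for its part in fibrosis and platelet production, showed the largest difference of the 10 members. It had 15.3, 13.8 and 20.7 CPM in mKO libraries 1 to 3, against 5.18, 9.19 and 8.17 CPM in control libraries 1 to 3. The lowest mKO library thus lay well above the highest control library, and control library 1 was the lowest of all. On the log2 scale mKO exceeded control by 1.14 (SE 0.24), at an adjusted p of 0.221 in the edgeR test and 7.82e-04 in DESeq2. An exact permutation of 3 libraries against 3, two-sided, cannot go below 0.1, and it gave 0.1 for Il11, Lif, Il6 and Osmr. The DESeq2 call held on leaving out each library in turn, with adjusted p from 8.21e-04 to 0.0246, and the edgeR log2 fold change was lowest (0.93) without control library 1 and highest (1.31) without control library 2.

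Lif (ENSMUSG00000034394, chromosome 11), leukaemia inhibitory factor, a cytokine known for keeping mouse embryonic stem cells undifferentiated and induced in many injured tissues, had 35.2, 29.8 and 45.5 CPM in mKO libraries 1 to 3. In control libraries 1 to 3 it had 16.9, 17.96 and 25.9 CPM. Like Il11, it was highest in mKO library 3 and lowest in control library 1. On the log2 scale the difference was 0.86 (SE 0.21), and its adjusted p was 0.246 in the edgeR test and 0.0119 in DESeq2. The DESeq2 call held without mKO library 2 (adjusted p 0.00620) or control library 3 (2.87e-04), and was lost without any of the other 4 libraries, where the DESeq2 adjusted p was 0.0506 without mKO library 1, 0.120 without mKO library 3, 0.0663 without control library 1 and 0.122 without control library 2. Skeletal muscle markers (4 of 4 measured) were each highest in mKO library 3 too, with summed levels of 18.8, 3.57 and 122.7 CPM in mKO libraries 1 to 3 and 2.96, 4.12 and 36.2 CPM in control libraries 1 to 3. Their lowest library was not shared, being mKO library 2 for Acta1 and Ckm, control library 2 for Mylpf and control library 1 for Tnnt3. Without the 2 libraries richest in those markers, mKO library 3 and control library 3, the log2 fold change was 1.01 for Il11 and 0.90 for Lif. Summed mast cell markers (4 of 4 measured) did not overlap between groups, at 11.2 to 19.7 CPM in mKO and 1.95 to 10.6 CPM in control. Of these, only Cma1 and Mcpt4 had every mKO library above every control library, and Cpa3 and Tpsb2 overlapped. The part of mast cells in these differences was not tested.

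Il6 (ENSMUSG00000025746, chromosome 5), the founding member and the main inducer of the hepatic acute-phase response, had 99.0, 73.3 and 89.8 CPM in mKO libraries 1 to 3, against 57.7, 64.9 and 67.5 CPM in control libraries 1 to 3. The gap between groups was narrow, with mKO library 2 only a little above control library 3. Its log2 difference of 0.46 (SE 0.14) had an adjusted p of 0.317 in the edgeR test and 0.0502 in DESeq2. On leaving out 1 library the DESeq2 adjusted p was 9.55e-04 without mKO library 2, and it missed the threshold without any of the other 5, at 0.0975 to 0.246. With library totals alone, without TMM scaling, the groups of Il6 and of Osmr overlapped, and those of Il11 and Lif did not. Summed monocyte and macrophage markers (6 of 6 measured) lay at 621.1 to 742.8 CPM in mKO and 521.8 to 602.6 CPM in control. Of the 6, only Cd68 and Csf1r had every mKO library above every control library, and the other 4 overlapped. The part of these cells in the Il6 difference was not tested.

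The promoters of these 3 ligands are shown because they are the members whose groups stood apart with mKO higher. The RefSeq promoter table, on mouse build GRCm38.p6, matched 8 of the 10 members, in 11 windows. Osm and Clcf1 had no window, so no ligand with overlapping groups enters the motif counts over member windows. The sequences give the 250 bases before the annotated start site, 5′ to 3′ on the strand of the gene, with matches to the motifs searched in capitals. They come from chr5:30012864-30013113 (plus strand) for Il6, chr7:4778142-4778391 (minus strand) for the downstream one of the 2 start sites of Il11, and chr11:4257318-4257567 (plus strand) for Lif.
Il6: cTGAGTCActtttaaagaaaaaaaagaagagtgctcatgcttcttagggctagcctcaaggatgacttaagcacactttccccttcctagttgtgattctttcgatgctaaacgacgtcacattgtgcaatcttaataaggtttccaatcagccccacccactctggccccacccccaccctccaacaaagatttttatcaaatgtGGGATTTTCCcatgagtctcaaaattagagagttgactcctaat
Il11: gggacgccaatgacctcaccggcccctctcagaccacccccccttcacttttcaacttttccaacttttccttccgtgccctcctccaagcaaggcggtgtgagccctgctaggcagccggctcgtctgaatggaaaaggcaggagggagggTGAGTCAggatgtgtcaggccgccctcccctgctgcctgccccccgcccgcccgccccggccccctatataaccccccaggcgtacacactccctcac
Lif: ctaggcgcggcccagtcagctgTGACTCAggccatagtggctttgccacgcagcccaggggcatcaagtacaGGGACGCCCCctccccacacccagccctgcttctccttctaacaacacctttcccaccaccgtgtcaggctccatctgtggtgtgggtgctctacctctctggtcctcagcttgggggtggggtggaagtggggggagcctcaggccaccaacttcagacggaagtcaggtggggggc

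The AP-1 motif TGANTCA, which reads the same on both strands, was present once in each of these windows, 249 bases before the start site of Il6, 98 bases before that of Il11 and 228 bases before that of Lif. The window of the other Il11 start site, chr7:4782858-4783107 (minus strand), held no match to any motif searched. The AP-1 motif was found in 3 of the 11 member windows and in 6.75% of 32851 promoter windows of the same length. An NF-kB motif, GGGA then any base then TTTCC, searched on both strands, stood 44 bases before the start of Il6 and was found in 0.356% of all windows. A second NF-kB form, GGG then NNN then TCCC, matched on the opposite strand 178 bases before the start of Lif and in 4.77% of all windows. It also matched on the opposite strand 91 bases before a start site of Lifr, a receptor that was not higher in mKO. An NF-kB form thus stood in 3 of the 11 member windows. No capitals in the printed windows overlap between motifs. The motifs CRE (TGACGTCA), STAT (TTCNNNGAA), C/EBP (TTGCNNNAA) and TATA box (TATAAA), searched on both strands, matched none of the 3 printed windows and were found in 1.55%, 7.02%, 8.29% and 12.4% of all windows. Only these exact letters were searched, so the lack of a match does not show that a site of these types is absent. The printed Il6 window holds ttgtgcaa, which on the opposite strand differs from the C/EBP letters by a shorter spacer. Letters with that shorter spacer were not searched. The lack of a C/EBP match and the 8.29% thus hold for the longer spacer alone. They cannot decide whether the Il6 window holds a C/EBP site. The printed Il6 window also holds cgacgtca, which differs from the CRE letters in its first base alone. The printed Il11 window holds tatataa, close to the TATA box letters. A match is a description of the letters, not a measured site.

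Osm (ENSMUSG00000058755, chromosome 11), oncostatin M, made largely by neutrophils and macrophages, overlapped between groups. It had 75.2, 127.2 and 103.1 CPM in mKO libraries 1 to 3, against 84.9, 72.9 and 98.1 CPM in control libraries 1 to 3. mKO library 1 lay below 2 of the 3 control libraries, while mKO library 2 was the highest. Its log2 difference was 0.26 (SE 0.21, edgeR adjusted p 0.614), against 0.06 when mKO library 2 was left out and 0.43 when mKO library 1 was. Clcf1 (ENSMUSG00000040663, chromosome 19), cardiotrophin-like cytokine factor 1, a ligand of the CNTF receptor, had 17.1, 21.7 and 21.4 CPM in mKO libraries 1 to 3, against 17.7, 19.2 and 23.9 CPM in control libraries 1 to 3. Its libraries interleaved, and the log2 difference was -0.02 (SE 0.15, edgeR adjusted p 0.973). Its sign turned with DESeq2 size factors, to 0.00734. The gene shares 8.17% of its exon bases with another gene on the same strand, so its count is uncertain to that extent.

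Among the receptors, Osmr alone had groups that did not overlap. Osmr (ENSMUSG00000022146, chromosome 15), the signalling chain for oncostatin M on stromal and endothelial cells, had 32.3, 30.9 and 40.0 CPM in mKO libraries 1 to 3, against 42.6, 50.02 and 41.3 CPM in control libraries 1 to 3. mKO library 3 came close to control library 3. The log2 difference of -0.38 (SE 0.14) had an adjusted p of 0.364 in the edgeR test and 0.244 in DESeq2. Lifr (ENSMUSG00000054263, chromosome 15), the signalling chain for LIF, had 13.0, 10.1 and 10.4 CPM in mKO libraries 1 to 3, against 12.5, 16.5 and 13.5 CPM in control libraries 1 to 3. Only mKO library 1 reached into the control range. The log2 difference was -0.35 (SE 0.15, edgeR adjusted p 0.427), with a range of -0.46 to -0.22 on leaving out 1 library.

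Il6st (ENSMUSG00000021756, chromosome 13), the gp130 chain shared by the 5 ligands described here, overlapped widely, at 133.9, 107.8 and 162.9 CPM in mKO libraries 1 to 3 and 123.4, 157.0 and 100.9 CPM in control libraries 1 to 3. Its log2 difference was 0.09 (SE 0.21, edgeR adjusted p 0.873). The sign turned when mKO library 3 (-0.0729), control library 3 (-0.0558) or both (-0.21) were left out. Il6ra (ENSMUSG00000027947, chromosome 3), the IL-6 receptor of leukocytes and hepatocytes, had 99.8, 169.7 and 110.6 CPM in mKO libraries 1 to 3, against 140.4, 76.0 and 95.8 CPM in control libraries 1 to 3. An antisense gene covers 2.80% of its exon bases. Il6ra varied most among the receptors, 2.23-fold between mKO library 2 and control library 2. The log2 difference of 0.28 (SE 0.28, edgeR adjusted p 0.676) ranged from 0.02, when mKO library 2 was left out, to 0.56, when control library 1 was. Il11ra1 (ENSMUSG00000073889, chromosome 4), the IL-11 receptor alpha chain, had 18.2, 10.996 and 16.4 CPM in mKO libraries 1 to 3, against 15.8, 19.99 and 12.7 CPM in control libraries 1 to 3. Its libraries interleaved, and the log2 difference of -0.09 (SE 0.23, edgeR adjusted p 0.882) turned to 0.10 on leaving out mKO library 2 and to 0.0931 on leaving out control library 2. Mice carry a near copy, Il11ra2, so reads could be split between the 2 genes and both counts are uncertain.

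**Figure D2:**
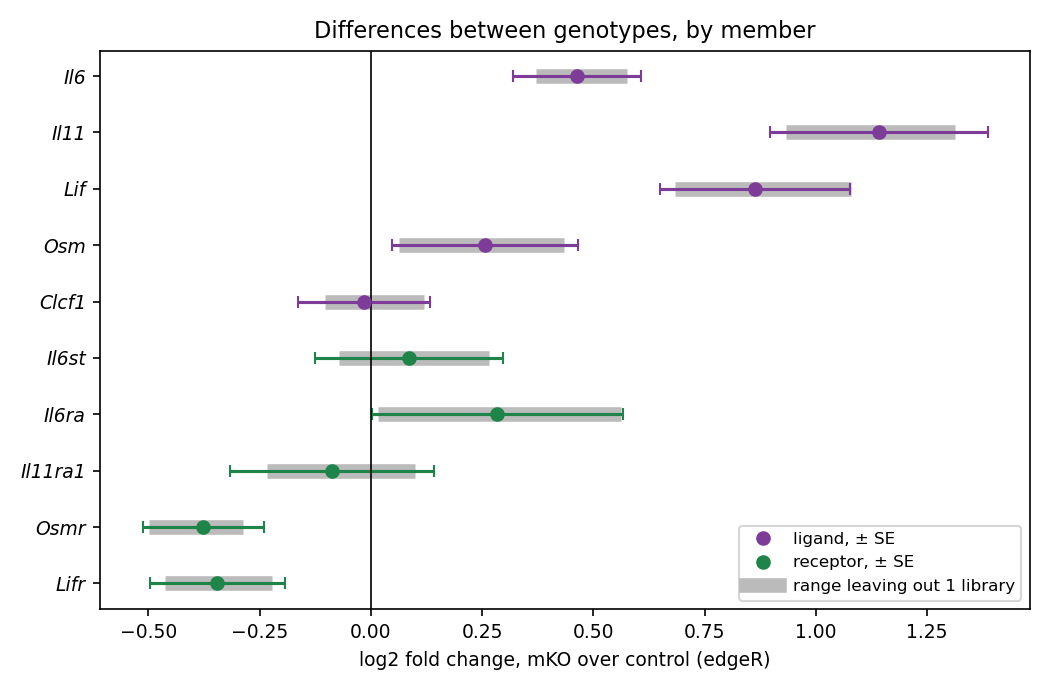
Log2 fold change of each member, mKO over control, from edgeR; bars are the SE and the grey band is the range on leaving out 1 library at a time. Il6, Il11, Lif, Osm and Il6ra stay above 0 and Osmr and Lifr below it over that range, whereas Clcf1, Il6st and Il11ra1 cross 0.

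The ratio of each ligand to its own receptor within a library sets the directions side by side; these are ratios of CPM, not per length, and carry no test. Il11 over Il11ra1 was 0.837 to 1.26 in mKO libraries and 0.327 to 0.643 in control libraries. Lif over Lifr was 2.71 to 4.39 in mKO libraries and 1.09 to 1.92 in control libraries. For both pairs every mKO library lay above every control library. Osm over Osmr was 2.33 to 4.11 in mKO libraries and 1.46 to 2.38 in control libraries, an overlap set by mKO library 1 and control library 3. Il6 over Il6ra overlapped most, at 0.432 to 0.992 in mKO libraries and 0.411 to 0.854 in control libraries.

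**Figure D3:**
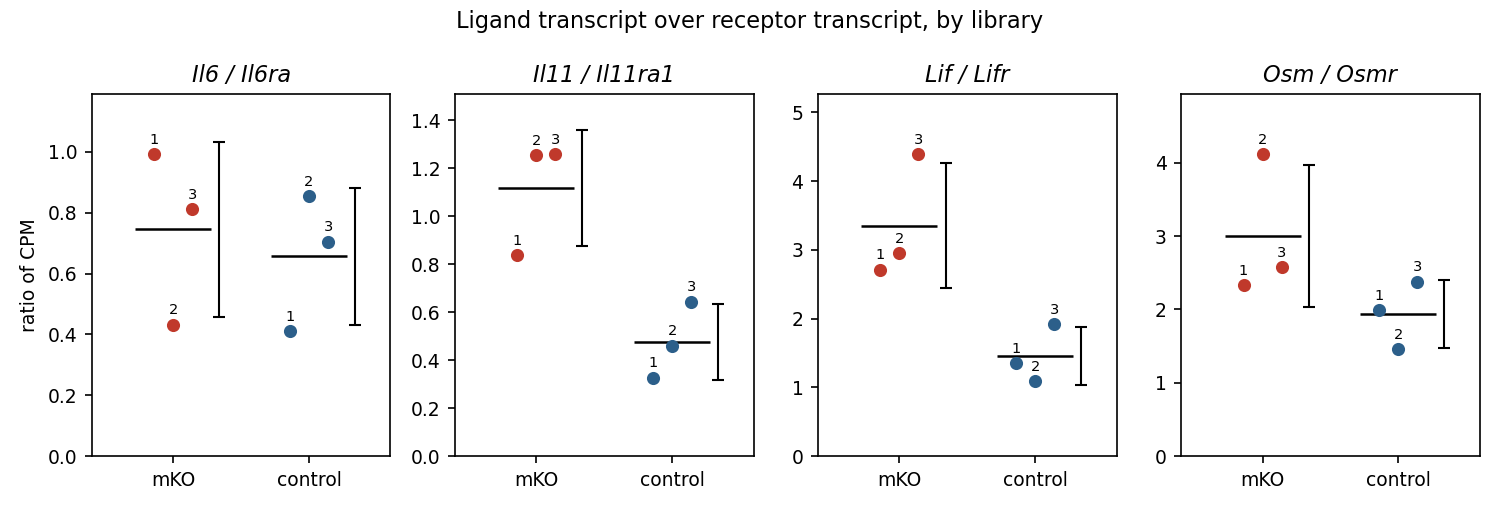
Ratio of ligand CPM to receptor CPM in each library, on axes that start at 0; points are libraries numbered by replicate, with the group mean and SD (n = 3). Il11 over Il11ra1 and Lif over Lifr separate the groups, and Il6 over Il6ra does not.

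Compared per kilobase of annotated exon, Osm and Il6 were the most abundant transcripts of the family in both groups. Osm averaged 44.8 ± 11.5 CPM per kilobase in mKO and 37.5 ± 5.55 in control, and Il6 averaged 36.0 ± 5.37 in mKO and 26.1 ± 2.09 in control (SD, n = 3 each). Their library ranges overlapped in mKO and did not in control. Il6ra and Il6st came next with overlapping ranges, at 14.7 ± 4.36 and 12.2 ± 2.49 CPM per kilobase in mKO and 12.0 ± 3.82 and 11.5 ± 2.54 in control. Below them the order differed between groups. In mKO, Lif (8.47 CPM per kilobase) and Il11 (7.97) followed with overlapping ranges and lay above Clcf1 (5.28), Il11ra1 (3.41) and Osmr (2.84). In control, Clcf1 (5.33), Lif (4.66), Osmr (3.69), Il11ra1 (3.62) and Il11 (3.61) followed, each overlapping its neighbour in that order. Il6 lay above Il6ra without overlap in both groups, Il6st overlapped Lif in mKO, and in control Il6st lay above Clcf1 without overlap. Lifr was the least abundant member in both groups, at 1.03 ± 0.148 CPM per kilobase in mKO and 1.31 ± 0.190 in control, below the range of every other member. Exon lengths came from an earlier annotation, GENCODE vM21 on GRCm38, and are approximate for the deposited counts.

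Across single libraries the members fell into different patterns. Osm and Il6ra were highest in mKO library 2 and lowest in control library 2. The neutrophil markers, all 6 of 6 measured, had summed levels of 13542 to 18676 CPM in mKO and 9471 to 15220.0 CPM in control, and their sum was likewise highest in mKO library 2 and lowest in control library 2. Of these markers, 5 were highest in mKO library 2. The summed erythroid markers (4 of 4 measured) had the same highest and lowest library, at 170587 to 199016 CPM in mKO and 145769 to 188308 CPM in control. Osmr, Lifr and Il11ra1 showed the reverse, highest in control library 2 and lowest in mKO library 2. So did the smooth muscle markers, all 6 of 6 measured and each highest in control library 2, with sums of 667.8 to 1458 CPM in mKO and 1199.8 to 3009 CPM in control, and the sum of the 6 fibroblast markers, at 353.8 to 658.3 CPM in mKO and 456.4 to 854.5 CPM in control. Of the 6 fibroblast markers, only 3 were highest in control library 2. The summed adipocyte markers (4 of 4 measured) were also highest in control library 2 and lowest in mKO library 2. Their sums did not overlap between groups, at 64.0 to 112.8 CPM in mKO and 119.8 to 151.0 CPM in control. Of these, only Cidec had every mKO library below every control library. Summed T and NK cell markers (5 of 5 measured) lay at 9.47 to 10.7 CPM in mKO and 10.8 to 23.5 CPM in control. Of these, only Nkg7 and Gzmb had every mKO library below every control library. Summed endothelial markers (6 of 6 measured) did not overlap between groups, at 496.2 to 646.4 CPM in mKO and 687.8 to 813.7 CPM in control. Of these, only Pecam1 and Cldn5 had every mKO library below every control library, and Cdh5, Vwf, Tie1 and Kdr overlapped. The summed endothelial, T and NK cell and B cell markers were also highest in control library 2, with other lowest libraries. Summed lymphatic endothelial markers (4 of 4 measured) overlapped, at 87.2 to 110.8 CPM in mKO and 102.6 to 108.9 CPM in control. Of these, Prox1, Lyve1 and Flt4 had every mKO library below every control library, and Pdpn had every mKO library above. The part of these cell types in the member differences was not tested.

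**Figure D4:**
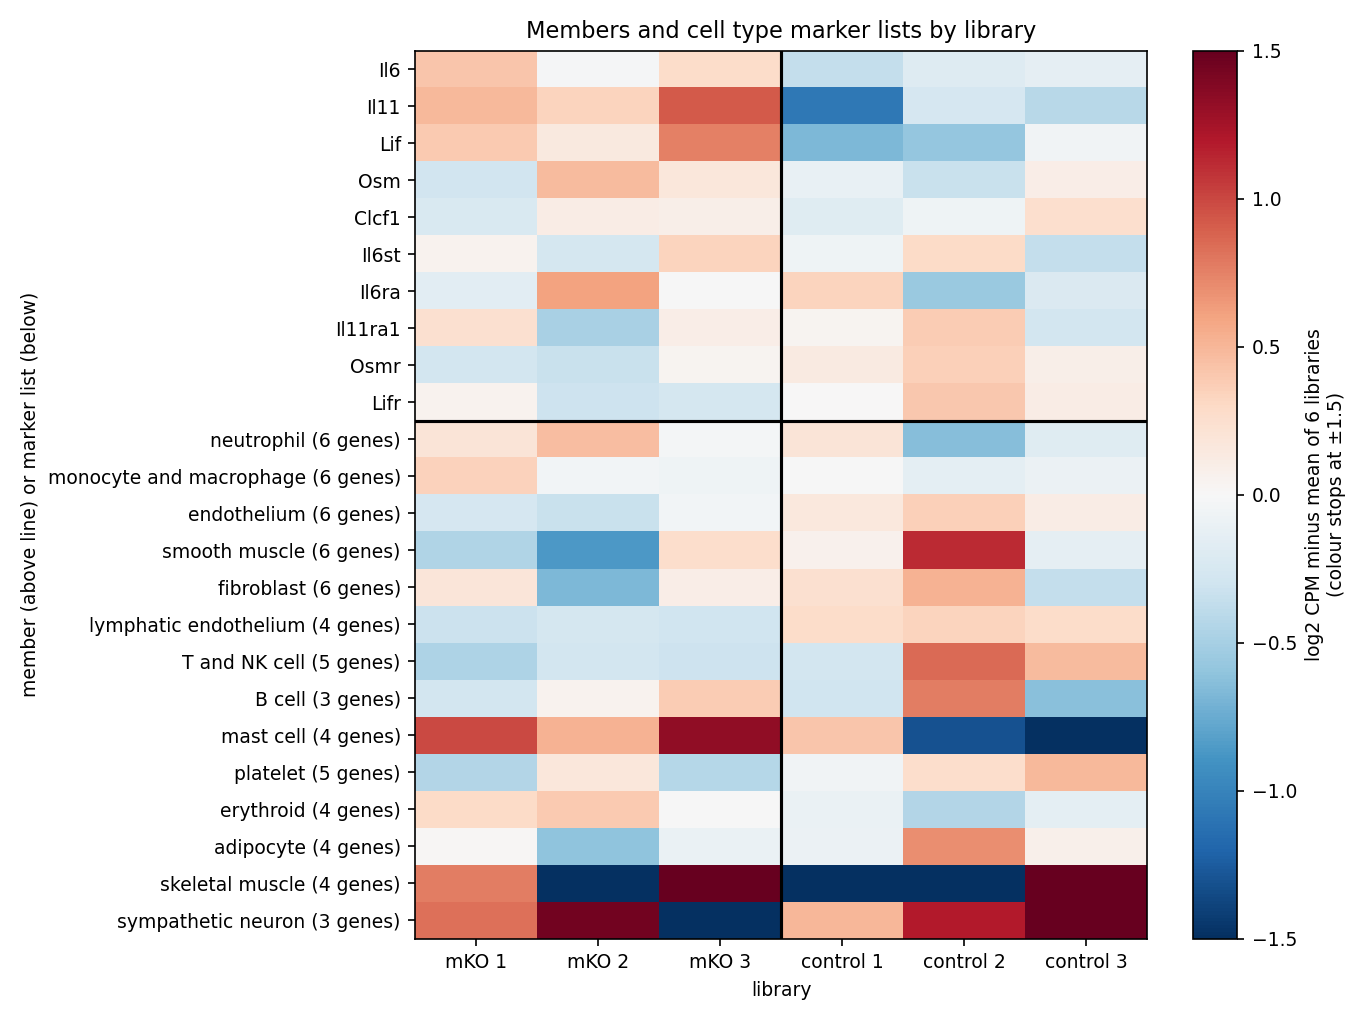
Log2 CPM of each member, and mean log2 CPM of each marker list, minus the mean over the 6 libraries; red is higher, blue is lower, and the colour stops at ±1.5. Osm and Il6ra share their highest library, mKO 2, with the neutrophil and erythroid markers. Osmr, Lifr and Il11ra1 share theirs, control 2, with the smooth muscle, fibroblast, endothelial, lymphatic endothelial, T and NK cell, B cell and adipocyte markers.

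Other genes of the pathway, in 7 lists, gave 0 calls by edgeR quasi-likelihood and by limma voom in every list. The lists were chosen with earlier results of these data known. Beside their counts, 5.6% of all genes tested were higher in mKO and 6.26% lower at an unadjusted p under 0.05 by edgeR. DESeq2 called 1.47% higher and 1.33% lower. A list of 8 inflammatory genes tied to Il6 induction had a median log2 fold change of 0.49, where the median of all genes tested was -0.03. It holds 7 genes that act upstream of Il6 and Nfkbia, which encodes an inhibitor of NF-kB. The log2 fold change was positive for all 8, where 7576 of 16523 genes tested lay above 0. The lowest was that of Nfkbia (0.02), named here after its value was seen. At an unadjusted p under 0.05, 3 of them were higher in mKO and 0 lower, and the same 3 passed DESeq2. Tnf, the cytokine tumour necrosis factor, had 38.3, 27.5 and 19.3 CPM in mKO libraries 1 to 3, against 12.8, 12.5 and 16.6 CPM in control libraries 1 to 3 (log2 fold change 1.02, SE 0.25, edgeR adjusted p 0.255 and 0.00714 by DESeq2). Its mKO libraries lay above every control library, with mKO library 3 the nearest to them. Ptgs2, the inducible cyclooxygenase, averaged 247.4 ± 28.9 CPM in mKO and 169.0 ± 5.27 CPM in control (SD, n = 3 each), a log2 fold change of 0.55 (SE 0.14). Il1b, the most abundant of the list, averaged 739.3 ± 168.7 CPM in mKO and 455.5 ± 61.3 CPM in control (SD, n = 3 each), a log2 fold change of 0.70 (SE 0.21).

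Genes that bear on receptor shedding or on transcript decay, in either direction, had a median log2 fold change of 0.28 over 7 genes. At an unadjusted p under 0.05, 1 was higher and 0 lower. The 1 was Adam17, the protease that sheds the IL-6 receptor, at 74.7, 89.3 and 85.8 CPM in mKO libraries 1 to 3, against 64.1, 59.2 and 61.3 CPM in control libraries 1 to 3. Its groups were well apart, by 0.44 on the log2 scale (SE 0.12, adjusted p 0.274 in the edgeR test and 0.0198 in DESeq2). The log2 fold change of Rhbdf2, the iRhom that carries ADAM17 to the cell surface, was 0.40 (SE 0.18), and Zfp36, an RNA-binding protein that destabilises cytokine transcripts and the most abundant of the list, had 0.23 (SE 0.22).

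The 12 signal transducers differed in both directions, with 9 log2 fold changes above 0 and 3 below. Their median was 0.13 and their range -0.51 to 0.41. At an unadjusted p under 0.05, 3 were higher and 1 lower, and DESeq2 called 0. The log2 fold change of Jak2, a kinase bound to gp130, was 0.41 (SE 0.16). That of Stat3, the main effector and the most abundant transducer, was 0.13 (SE 0.19), and -0.00594 on leaving out control library 2. Over 8 feedback inhibitors the median was 0.13, with 2 higher and 0 lower at an unadjusted p under 0.05 and 0 called by DESeq2. Socs3, the inhibitor that binds gp130 and a direct STAT3 target, had 336.4, 322.9 and 213.9 CPM in mKO libraries 1 to 3, against 360.0, 177.2 and 272.0 CPM in control libraries 1 to 3. Its libraries interleaved, and the log2 difference of 0.11 (SE 0.29) turned to -0.12 on leaving out control library 2 and -0.0115 on leaving out mKO library 1. The phosphatase Ptpn6 had 0.51 (SE 0.17) and Pias3, an inhibitor of STAT3, 0.24 (SE 0.09).

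Known STAT3 target genes, 23 in number, had a median log2 fold change of 0.11, with 2 higher and 2 lower at an unadjusted p under 0.05 and 0 higher and 1 lower by DESeq2. The 1 was the growth regulator Myc, at 28.99, 27.08 and 27.96 CPM in mKO libraries 1 to 3, against 36.1, 35.1 and 40.5 CPM in control libraries 1 to 3 (log2 fold change -0.41, SE 0.10, edgeR adjusted p 0.246 and 0.0409 by DESeq2). The acute-phase gene Saa1, scarce in this tissue, averaged 0.850 ± 0.188 CPM in mKO and 1.67 ± 0.384 CPM in control (SD, n = 3 each), a log2 fold change of -0.97 (SE 0.28). The 2 higher genes, named after their values were seen, were Il1rn, the IL-1 receptor antagonist, and the transcriptional repressor gene Bcl6. Il1rn had 538.2, 402.3 and 272.1 CPM in mKO libraries 1 to 3, against 249.2, 209.9 and 266.1 CPM in control libraries 1 to 3. Bcl6 had 90.2, 116.1 and 93.8 CPM in mKO libraries 1 to 3, against 88.5, 57.3 and 74.6 CPM in control libraries 1 to 3. Neither overlapped between groups, although mKO library 3 for Il1rn and mKO library 1 for Bcl6 came close to control, and the log2 fold changes were 0.74 and 0.44. Lcn2, the most abundant of the list and also a neutrophil granule gene, ranged from 943.3 to 3117 CPM in mKO and from 1196 to 2635 CPM in control, a log2 fold change of 0.09 (SE 0.47) that turned to -0.32 without mKO library 1.

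The remaining ligands and receptors of the family were mostly scarce. Of 7 further ligands 5 were analysed, with a median log2 fold change of -0.24 and 0 called by DESeq2 or at an unadjusted p under 0.05; Ebi3, a subunit of IL-27 and the most abundant of them, averaged 25.0 ± 6.55 CPM in mKO and 21.9 ± 5.65 CPM in control (SD, n = 3 each). The log2 fold change of Il27, the other IL-27 subunit, was -0.41 (SE 0.28). That of Ctf1, cardiotrophin 1, was -0.29 (SE 0.34), and 0.0926 without control library 2. The 5 further receptors had a median of -0.48, with 0 higher and 1 lower at an unadjusted p under 0.05 and 0 called by DESeq2. The lower one was Il11ra2, at 0.598 ± 0.250 CPM in mKO and 1.34 ± 0.561 CPM in control (SD, n = 3 each), a log2 fold change of -1.17 (SE 0.41). Il31ra, the IL-31 receptor, had -1.05 (SE 0.49), and Crlf3, the most abundant of these, 0.16 (SE 0.09).

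**Figure D5:**
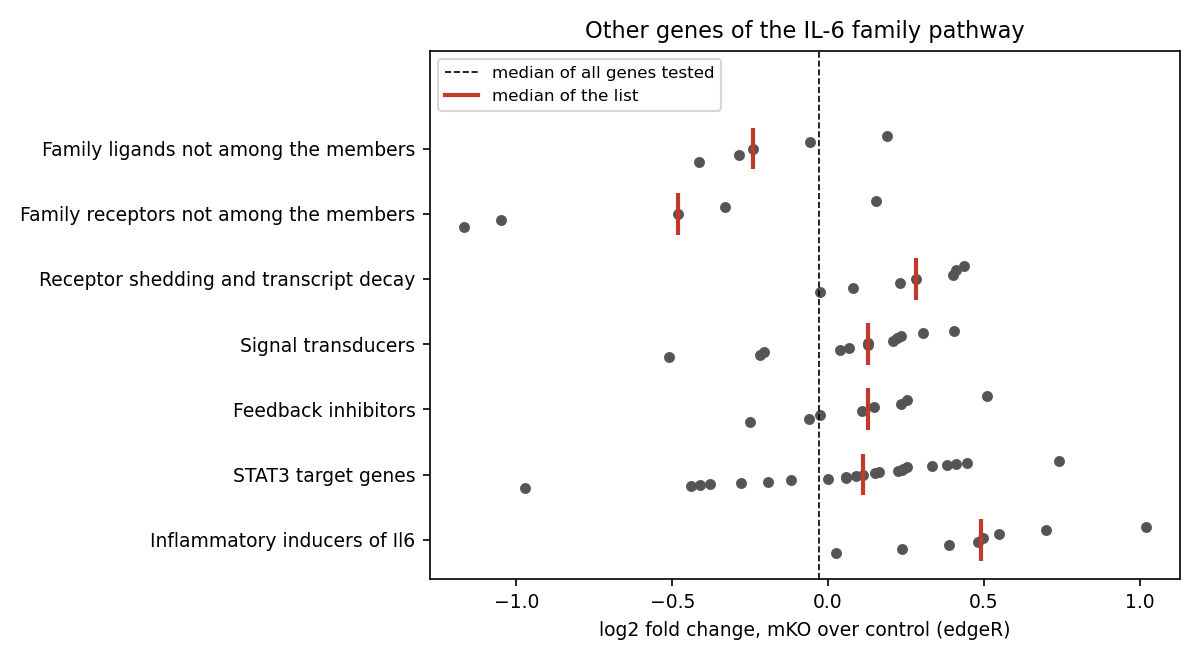
Log2 fold change, mKO over control, of each gene in the 7 pathway lists; points are genes, the red line is the median of the list and the dashed line the median of all genes tested, -0.03. The inflammatory list, labelled inducers and including the inhibitor gene Nfkbia, lies above 0 throughout, with a median of 0.49, and the further receptors mostly below it, with a median of -0.48.

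The genes whose pattern over the 6 libraries was most like that of a member were found by the root mean square difference of centred log2 CPM, among 13893 other genes of at least 1 CPM on average. For Il11 they were Lonrf3 (0.166), the lectin gene Cd209a (0.212) and Syne3, which encodes a nesprin of the nuclear envelope (0.219). Lif was the member nearest to Il11 (0.282), closer than all but 6 of those genes. For Il6 they were the tight junction gene Tjp3 (0.0659), Tlcd1 (0.0739) and Otulinl (0.0786). For Osmr they were Ptk2, the focal adhesion kinase (0.0156), the dystroglycan gene Dag1 (0.0241) and Pear1, a receptor of platelets and endothelium (0.0367). Lifr was the member nearest to Osmr, at 0.191. These are descriptions of the same 6 libraries and carry no test.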

How the data were processed

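The labels' protocols describe oligo(dT)-selected RNA read as paired ends of 150 bp. For each library the authors deposited 1 table of raw counts per gene. The submitters' processing notes name build GRCm39 and the tools featureCounts 2.0.1, HISAT2 2.1.0, Trim Galore 0.4.0 and FastQC 0.11.8, without their roles. No source used here gives the strand setting or the annotation release, so overlapping genes, such as an antisense gene sharing 2.80% of the exon bases of Il6ra, cannot be told apart. Counts were tested across all genes with edgeR 4.0.16 (R 4.3.3; TMM, default filter, robust quasi-likelihood F-test, Benjamini-Hochberg, threshold 0.05); SE is that implied by the F-test. DESeq2 1.42.0, limma 3.58.1 voom, other normalizations and filters, a replicate block and leaving out libraries were alternatives; the fits were tested on simulated data. No pair of libraries of the same group agreed within sampling noise, and pairs across groups were not compared. The members and lists were chosen with earlier results of these data known. Named genes were all members, Sting1, Lyz2, per list those past 0.05 or the 2 with the smallest p and the most abundant, and the 3 genes most like Il6 and the ligand and receptor with the smallest p. Some genes that this rule names are not reported here.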

Additional observations from a re-analysis of the deposited data

How the results depend on the processing

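Il6, Il11, Lif, Osm, Il6ra, Osmr and Lifr kept their direction in all 18 alternatives to the reported edgeR fit, and Clcf1, Il6st and Il11ra1 did not; the cause was not tested. Clcf1 turned to 0.00734 with DESeq2 size factors, 0.00738 by DESeq2 and 0.0723 without the muscle-rich pair of libraries (mKO 3 and control 3), an alternative chosen after seeing the data. On leaving out 1 library it ran from -0.10 to 0.12. Il6st was -0.21 without that pair and -0.0729 to 0.27 without 1 library. Il11ra1 was 0.0733 by voom with quality weights and -0.23 to 0.10 without 1 library. Lcn2 was -9.11e-04 by voom and -0.24 with quality weights. Without 1 library, Lcn2 ran from -0.32 to 0.44, Socs3 from -0.12 to 0.37, Stat3 from -0.00594 to 0.29 and Ctf1 from -0.48 to 0.0926.

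Members past the threshold numbered 0 in every alternative except DESeq2, with 2, and 1 to 3 when DESeq2 was repeated without 1 library, a repeat chosen after seeing the data. The smallest adjusted p of a member was 0.221 by edgeR and 7.82e-04 by DESeq2. Over all genes, edgeR called 0, and 0 to 7 without 1 library (4 without mKO library 3, 7 without control library 1 and 2 without control library 3), and 6 without the muscle-rich pair. DESeq2 called 462, and 552, 497 and 312 without mKO library 1, 2 or 3, and 764, 243 and 353 without control library 1, 2 or 3. Genes with groups that did not overlap numbered 3001, 3700 to 6003 without 1 library and 6400 without the muscle-rich pair, since fewer libraries overlap less. Members with such groups, and members at the smallest exact permutation p, numbered 4, and 2 with library totals alone. Without 1 library the first count was 4 to 6 and the second 2 to 4. The replicate numbers did not pair the libraries, as the correlation of same-numbered deviations was -0.136, -0.152 and -0.267; with a replicate block 0 members and 0 genes passed in edgeR (smallest adjusted p of a member 0.412), with 1299 genes at an unadjusted p under 0.05 against 1960 without it, and no library correlated best with its own number. The number of pools, not depth, limits the precision.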
